A study of Mus musculus with 16 samples.

Results

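Translation initiation factors are the proteins that assemble a ribosome on an mRNA, and their own mRNAs were followed here in perfused mouse liver. Genes were taken by symbol, as all those whose symbol starts with Eif followed by a digit from 1 to 6, leaving out the eIF2 kinases, the 4E-binding proteins and a further eIF2 subunit gene. Of 18193 genes in the deposited table, 41 met this rule, each read from the probe set with the highest mean signal. The livers came from mice of 3 to 6 months that lacked the kinase Gcn2 in the whole body (Gcn2 knockout) and from their wild-type littermates. Each liver was perfused in a single pass with medium lacking methionine or with medium holding all amino acids. RNA was taken from the polysome fraction of a sucrose gradient, where mRNAs carrying several ribosomes sediment, and from the detergent supernatant before any gradient (unfractionated). The 8 groups were Gcn2 knockout without methionine, Gcn2 knockout with methionine, wild-type without methionine and wild-type with methionine, each as polysome RNA and as unfractionated RNA. Every group had 2 arrays, and every array held RNA pooled from 2 livers, 16 arrays in all. The labels give no sex, and no liver was measured alone.

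Initiation starts when eIF2 carries the initiator tRNA to the small ribosomal subunit as a ternary complex with GTP, helped by eIF1, eIF1A and eIF5, while eIF3 holds the subunit open for mRNA. The eIF4 factors bind the cap, unwind the leader and bridge it to eIF3, and eIF5B joins the large subunit. The guanine exchange factor eIF2B recharges eIF2, and it is this step that Gcn2, a kinase that senses amino acid shortage, slows by phosphorylating eIF2. Several mRNAs of the translation apparatus begin with an unbroken run of pyrimidines, the terminal oligopyrimidine (TOP) motif, through which mTORC1 and the RNA-binding protein Larp1 control their loading onto ribosomes. In mammals Eif3e, Eif3f, Eif3h and Eif4b are among the known TOP mRNAs.

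The DNA around the transcription start is printed for members that differ in this feature and in the measurements that follow, 20 bases before and 20 bases from the start, from RefSeq on GRCm38.p6. Capitals mark the longest run of 8 or more pyrimidines (C or T only, on the strand that reads as the mRNA) that reaches within 5 bases of the annotated start. A shorter run in the same window is not marked.
Eif3f, chr7:108934395-108934434, plus strand: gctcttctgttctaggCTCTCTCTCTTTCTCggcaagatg
Eif3l, chr15:79075203-79075242, plus strand: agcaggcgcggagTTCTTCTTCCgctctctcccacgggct
Eif2s3y, chrY:1010575-1010614, plus strand: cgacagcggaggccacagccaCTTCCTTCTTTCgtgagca
Eif2s3x, chrX:94212632-94212671, minus strand: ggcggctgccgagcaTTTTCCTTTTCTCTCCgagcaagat
Eif3m, chr2:105017008-105017047, minus strand: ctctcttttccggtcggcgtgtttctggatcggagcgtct
Eif4b, chr15:102073753-102073792, plus strand: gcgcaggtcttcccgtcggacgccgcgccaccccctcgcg
Eif2d, chr1:131153187-131153226, plus strand: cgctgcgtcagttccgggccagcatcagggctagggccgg
Eif4h, chr5:134639390-134639429, minus strand: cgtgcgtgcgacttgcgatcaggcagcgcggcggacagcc
Of the 33 members with a RefSeq window, 7 (21.2%) had such a run in any of their windows. They were Eif2b5, Eif2s3x, Eif2s3y, Eif3f, Eif3l, Eif4e and Eif4enif1. The runs of Eif4e and Eif4enif1 end before the annotated start, and only some of the windows of these genes hold one. Counted in the same way, 12.1% of 8903 tested genes with a window had a run, and 9.4% of all 32851 windows held one. The marked run is 15 bases long in Eif3f, 10 in Eif3l, 12 in Eif2s3y and 16 in Eif2s3x. The windows of Eif3m, Eif4b, Eif2d and Eif4h have none of 8 or more that reaches within 5 bases of the start. The pyrimidine stretch that opens the Eif3m window ends further upstream. A run is a description of these letters, not evidence of a working motif, and an annotated start can differ from the start used in liver.

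The arrays had been scaled by the authors to one mean signal, so each value is relative to the average of its array and not an amount per liver. Replicate arrays of a group correlated at 0.968 to 0.976 across genes. Signal of 10 hepatocyte markers summed to 89990 to 121080 in polysome arrays and 105795 to 122229 in unfractionated arrays. The targeted gene, listed as Eif2ak4, gave signals of 21.2 to 52.9 in Gcn2 knockout arrays and 62.9 to 103.5 in wild-type arrays, -0.84 ± 0.15 (SE, adjusted p = 0.004) on the log2 scale. The labels do not say which part of the gene these probes read. Asns, a known amino acid response gene, ran from 39.2 to 92.4 in Gcn2 knockout arrays and from 377.5 to 1137.3 in wild-type arrays. Tests used limma on log2(signal + 16) with Benjamini-Hochberg adjustment over the 10916 genes with a mean signal of at least 25.0, and a gene was called at an adjusted p under 0.05. Of the 41 members, 39 were tested. The mean signals of Eif4a3 and Eif5a2 were under that floor.

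Initiation factor mRNAs differed among themselves in how they were shared between polysome and unfractionated RNA. Between polysome and unfractionated RNA over all 16 arrays, 11 of the 39 tested members were higher in polysome RNA, 18 were lower and 10 were not called. Among all tested genes 16.6% were higher and 14.8% were lower. The members' median difference was -0.21 on the log2 scale, against 0.02 over all tested genes. All 8 polysome arrays lay below all 8 unfractionated arrays for 12 members, as they did for 2.69% of tested genes. The opposite order held for 1 member, Eif1a, and for 2.34% of tested genes. The plot of the ratio by member orders these values by the complex a factor belongs to.

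**Figure D1:**
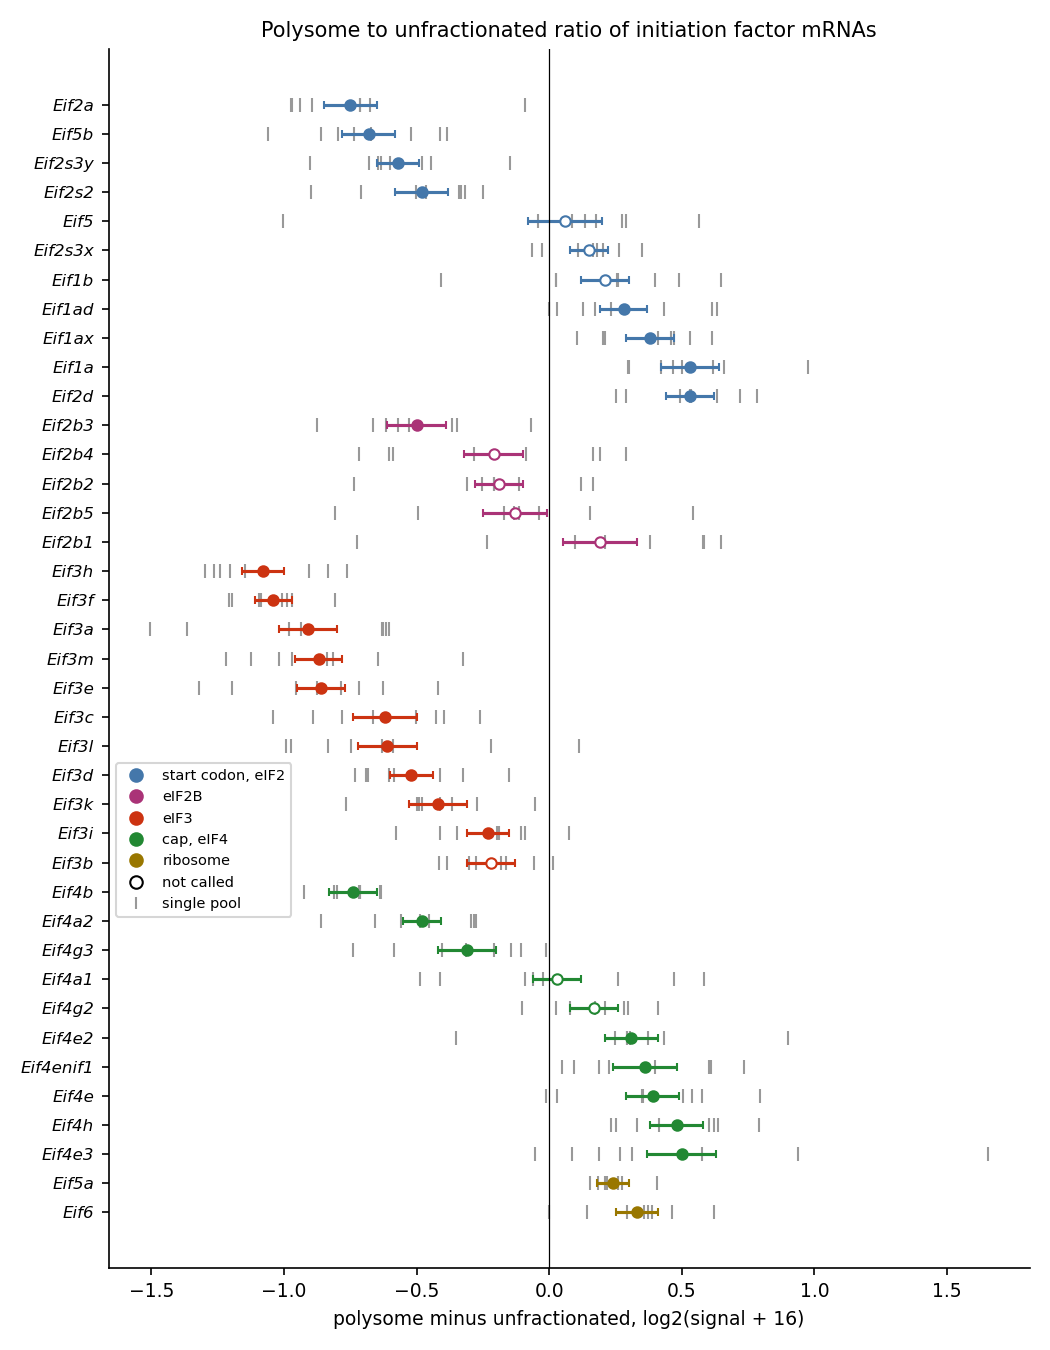
Polysome minus unfractionated difference in log2(signal + 16) for the 39 tested initiation factor genes, grouped by role. Circles are estimates over all 16 arrays with their standard errors, open circles were not called, and grey ticks are the 8 single pools. All 11 eIF3 genes lie left of 0, Eif5a and Eif6 lie right of 0, and the eIF4 and start codon genes fall on both sides.

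The mRNAs of eIF3, the largest initiation factor, were lower in polysome RNA for all tested subunits but Eif3b. Of 11 tested subunit genes 10 were lower in polysome RNA and 0 were higher, with a median of -0.62. Median scaling left 9 lower. Quantile normalization also gave 10 lower, but not the same 10, since Eif3b was called lower there and Eif3i was above 0. The 8 subunits built on PCI or MPN domains (a, c, e, f, h, k, l and m), which form the core that sits on the small subunit, were all lower, with a median of -0.87 and a range of -1.08 to -0.42. Of the other subunits Eif3d and Eif3i were lower, while Eif3b, the scaffold of the peripheral module, differed by -0.22 ± 0.09 (SE, adjusted p = 0.077) and was not called.

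Eif3h, an MPN subunit, had a lowest, median and highest signal of 1179, 1311 and 1669 in the polysome arrays, against 2565, 2849 and 3131 in the unfractionated arrays. The fractions did not overlap, and the difference was -1.08 ± 0.08 (SE, adjusted p = 7.3e-08), a level 0.47 times as high in polysome RNA. Eif3f, the other MPN subunit, read 1110.4, 1258 and 1305 in the polysome arrays, against 2218, 2589 and 2791 in the unfractionated arrays. Its 8 polysome arrays stood close together, all below the lowest unfractionated array, at -1.04 ± 0.07 (SE, adjusted p = 7.6e-08). The ratio within single pools was -1.3 to -0.76 for Eif3h and -1.21 to -0.81 for Eif3f, below 0 in 8 of 8 pools for both.

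Eif3a, the largest subunit and the one that anchors the core, read 815, 1294 and 1468 in the polysome arrays, against 1908, 2132 and 2916 in the unfractionated arrays. Polysome values again stayed below every unfractionated value, at -0.91 ± 0.11 (SE, adjusted p = 2.8e-05). Eif3m, a PCI subunit, read 459.6, 583 and 765 in the polysome arrays, against 962, 1069.6 and 1290.1 in the unfractionated arrays, with no overlap and a difference of -0.87 ± 0.09 (SE, adjusted p = 3.4e-06). Eif3e, the PCI subunit also known as Int6, read 1604, 1928 and 2476 in the polysome arrays, against 2946, 3886 and 4125 in the unfractionated arrays. The difference for Eif3e was -0.86 ± 0.09 (SE, adjusted p = 9.7e-06), also without overlap.

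Eif3c, which pairs with Eif3a in the core, had signals of 1609, 2227 and 2993 in the polysome arrays, against 2777, 3619 and 4334 in the unfractionated arrays. The highest polysome array of Eif3c passed the lowest unfractionated one, so its fractions overlapped, at -0.62 ± 0.12 (SE, adjusted p = 0.001). Eif3l overlapped too, at -0.61 ± 0.11 (SE, adjusted p = 0.0005), and Eif3d, the subunit able to bind the cap of some mRNAs, did not, at -0.52 ± 0.08 (SE, adjusted p = 0.00019). With the mean of each gene's probe sets the limma calls of Eif3l and Eif3d were lost (adjusted p = 0.082 for both). Their other probe sets were dim, with mean signals of at most 32.1. The smallest called differences of the complex were -0.42 ± 0.11 (SE, adjusted p = 0.0096) for Eif3k and -0.23 ± 0.08 (SE, adjusted p = 0.04) for Eif3i. The call for Eif3i was lost without any 1 of 12 arrays, and its sign turned under quantile normalization, at 0.08.

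**Figure D2:**
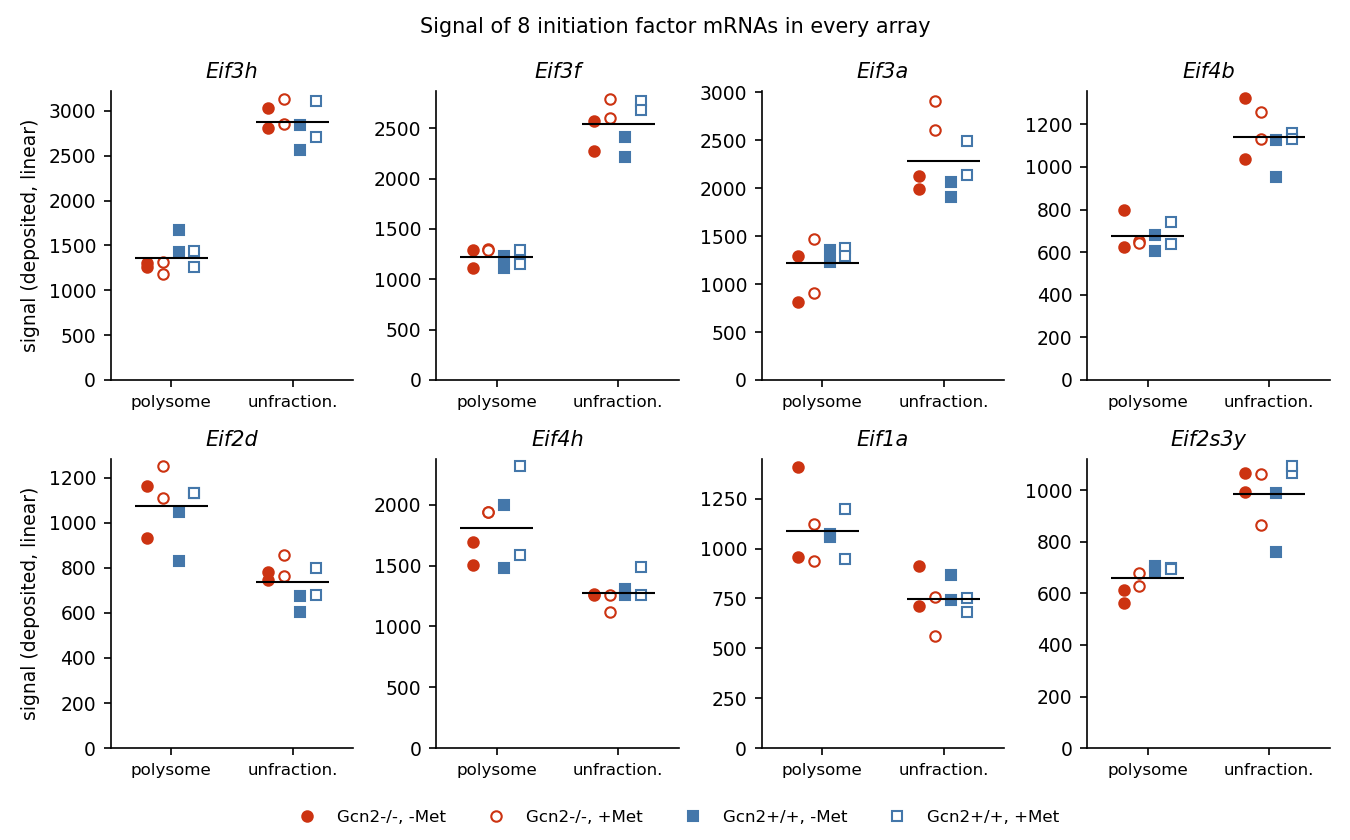
Deposited signal (linear) of 8 initiation factor mRNAs in every array, polysome RNA left of unfractionated RNA, with a line at the mean of 8 arrays. Filled symbols are livers perfused without methionine and open symbols with it, red circles are Gcn2 knockout and blue squares wild-type. Polysome arrays lie below unfractionated arrays without overlap for Eif3h, Eif3f, Eif3a, Eif4b and Eif2s3y, and above them for Eif1a.

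The start codon and ternary complex group was divided. Of its 11 genes 4 were higher in polysome RNA and 4 were lower, with a median of 0.15. The higher ones included Eif1a, a gene for eIF1A, which guides scanning to the start codon, with signals of 935, 1065 and 1408 in the polysome arrays, against 562, 748 and 911 in the unfractionated arrays. All polysome arrays lay above all unfractionated arrays, at 0.53 ± 0.11 (SE, adjusted p = 0.0016). The X-linked eIF1A gene, Eif1ax, was also higher, at 0.38 ± 0.09 (SE, adjusted p = 0.0044), as was Eif1ad, named for its eIF1A-like domain, at 0.28 ± 0.09 (SE, adjusted p = 0.032). Eif2d, a factor that can place tRNA without GTP, read 829, 1121 and 1251 in the polysome arrays, against 602, 754 and 858 in the unfractionated arrays. Only the lowest polysome array of Eif2d reached into the unfractionated range, and the difference was 0.53 ± 0.09 (SE, adjusted p = 0.00033). Its second brightest probe set gave 0.28 ± 0.09, and with the mean of the gene's probe sets the limma call was lost (adjusted p = 0.14).

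The 4 lower genes of this group were Eif2a, Eif5b, Eif2s3y and Eif2s2. Eif2a, an initiator tRNA-binding protein distinct from eIF2, read 154, 192 and 266 in the polysome arrays, against 284, 342 and 366 in the unfractionated arrays, at -0.75 ± 0.1 (SE, adjusted p = 4.8e-05) with no overlap. Eif5b, the GTPase of subunit joining, read 198, 292 and 391 in the polysome arrays, against 429, 454 and 564 in the unfractionated arrays, at -0.68 ± 0.1 (SE, adjusted p = 9.4e-05) with no overlap. Eif2s2, the beta subunit of eIF2, read 1994, 2915 and 3339 in the polysome arrays, against 3467, 3788 and 4501 in the unfractionated arrays, at -0.48 ± 0.1 (SE, adjusted p = 0.0026). Its 5 probe sets with a mean signal of 80 or more were not of one sign: the dimmest of them, at 0.31, went the other way. The remaining ones gave smaller differences of -0.27, -0.23 and -0.15. With the mean of the gene's probe sets the Eif2s2 call was lost (adjusted p = 0.25). Eif1b, an eIF1 gene, differed by 0.21 ± 0.09 (SE, adjusted p = 0.093) and was not called.

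Eif5, which activates GTP hydrolysis on eIF2, differed by 0.06 ± 0.14 (SE, adjusted p = 0.8) on its brightest probe set and was not called. Of its 5 probe sets 4 differed by -0.08 to 0.06 on the log2 scale. The fifth and dimmest, described after its values were seen, read 33.2, 67.3 and 107 (lowest, median and highest) in the polysome arrays, against 380.1, 509 and 629 in the unfractionated arrays, a difference of -2.64 ± 0.14 (SE) with no overlap. Which Eif5 transcript it reads was not examined.

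**Figure D3:**
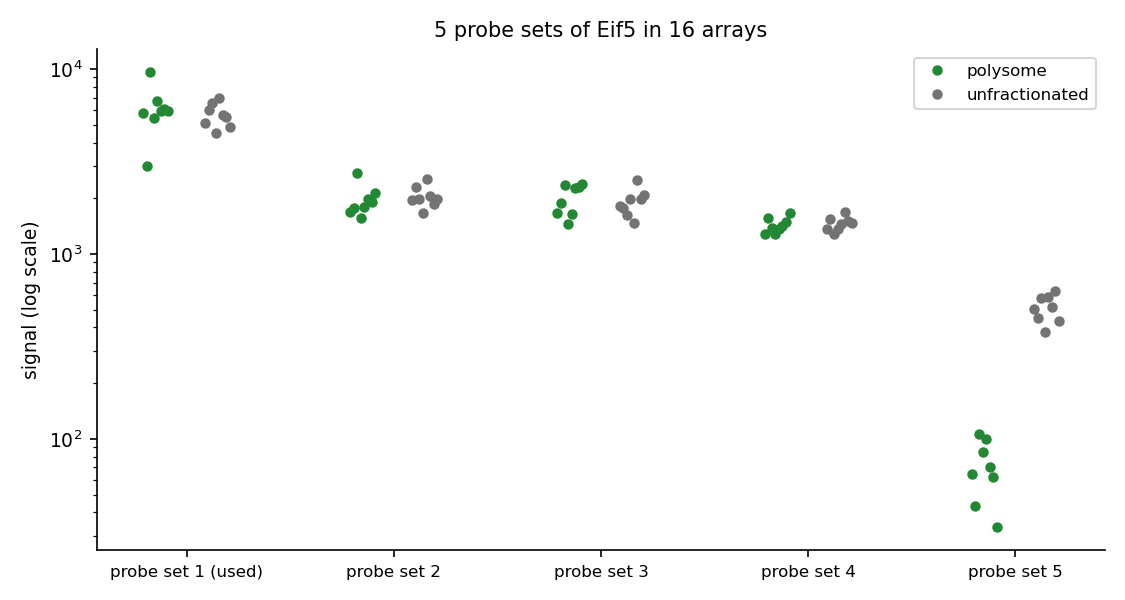
Deposited signal (log scale) of the 5 probe sets of Eif5 in 8 polysome arrays (green) and 8 unfractionated arrays (grey). The first 4 overlap between fractions, and the fifth does not.

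The gamma subunit of eIF2 is encoded in the mouse by a pair of genes, Eif2s3x on the X chromosome and Eif2s3y on the Y chromosome. Eif2s3y read 563, 682 and 706 in the polysome arrays, against 761, 1027 and 1095 in the unfractionated arrays, a difference of -0.57 ± 0.08 (SE, adjusted p = 0.00014) without overlap and below 0 in 8 of 8 pools. Eif2s3x read 1175, 1373 and 1478 in the polysome arrays, against 1149, 1215 and 1316 in the unfractionated arrays, a difference of 0.15 ± 0.07 (SE, adjusted p = 0.14) with overlapping fractions. The Y-linked copy was called lower and the X-linked copy was not called, while the difference between both genes was not tested. Eif2s3y gave at least 562.6 in all 16 arrays, and Xist, which marks cells with an inactive X, stayed at 5.0 to 34.8. With the mean of each gene's probe sets in place of the brightest one, Eif2s3y was at -0.27 (adjusted p = 0.099).

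Among the subunits of eIF2B, Eif2b3, which with Eif2b5 makes up the catalytic part of the exchange factor, read 165, 247 and 296 in the polysome arrays, against 270.4, 347 and 382 in the unfractionated arrays, at -0.5 ± 0.11 (SE, adjusted p = 0.0019). It was the sole eIF2B gene called of 5. The regulatory subunits Eif2b1, Eif2b2 and Eif2b4 differed by 0.19 ± 0.14, -0.19 ± 0.09 and -0.21 ± 0.11, with adjusted p of 0.35, 0.12 and 0.18. Eif2b5, the catalytic subunit, differed by -0.13 ± 0.12 (SE, adjusted p = 0.45).

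Cap-binding and eIF4 mRNAs went both ways, 5 of 10 higher and 3 lower, with a median of 0.24. Eif4e, the cap-binding protein itself, read 1039, 1503 and 1771 in the polysome arrays, against 899, 1054 and 1244 in the unfractionated arrays, at 0.39 ± 0.1 (SE, adjusted p = 0.007) with overlap. Its relatives Eif4e2 and Eif4e3 and the 4E transporter Eif4enif1 were higher as well, at 0.31 ± 0.1, 0.5 ± 0.13 and 0.36 ± 0.12 with adjusted p of 0.023, 0.0089 and 0.034. For Eif4e3 the ratio was 0.94 and 1.65 in the wild-type pools with methionine and -0.05 to 0.58 in the other 6 pools, and its other probe set gave 0.07 ± 0.16. Eif4h, a cofactor of the helicase eIF4A, read 1479, 1819 and 2317 in the polysome arrays, against 1116, 1259 and 1487 in the unfractionated arrays, at 0.48 ± 0.1 (SE, adjusted p = 0.0012). Eif4b, the other such cofactor, moved the opposite way with signals of 606, 648 and 798 in the polysome arrays, against 953, 1131 and 1323 in the unfractionated arrays. Its fractions did not overlap, at -0.74 ± 0.09 (SE, adjusted p = 2.3e-05), and its single pools ran from -0.92 to -0.63.

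Of the helicase genes Eif4a2 was called. It read 2386, 2924 and 3577 in the polysome arrays, against 3781, 4057 and 4389.6 in the unfractionated arrays, at -0.48 ± 0.07 (SE, adjusted p = 0.00017) without overlap. Eif4a1, its close paralogue, differed by 0.03 ± 0.09 (SE, adjusted p = 0.83), and its 2 other bright probe sets by -0.13 ± 0.11 and -0.21 ± 0.08. The scaffold gene Eif4g3 was lower at -0.31 ± 0.11 (SE, adjusted p = 0.045). Eif4g2, a scaffold that lacks the cap-binding partner site, differed by 0.17 ± 0.09 (SE, adjusted p = 0.16) on its brightest probe set and was not called. Its next brightest probe sets, with mean signals of 1785.9 and 567.0, were further above 0, at 0.26 ± 0.08 and 0.81 ± 0.12. The dimmest ones, with mean signals of 34.5 and 14.4, gave -0.2 ± 0.22 and -0.13 ± 0.23. Calls for Eif4g3, Eif4enif1, Eif1ad and Eif4e2 were lost without any 1 of 12, 9, 8 and 3 arrays. Eif5a, the hypusine-bearing factor that also acts in elongation, was higher with signals of 7799, 8369 and 8823 in the polysome arrays, against 6452, 6970.0 and 7818 in the unfractionated arrays, and barely overlapped, at 0.24 ± 0.06 (SE, adjusted p = 0.0081). Eif6, which keeps the large subunit from joining early, was higher at 0.33 ± 0.08 (SE, adjusted p = 0.007). Median scaling left 4 members higher and 16 lower.

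The 4 members listed here as known TOP mRNAs, Eif3e, Eif3f, Eif3h and Eif4b, were all lower in polysome RNA, with a median of -0.95. This short list was chosen with earlier results of these data known and need not hold every TOP mRNA among the members. Of the 7 members with a pyrimidine run reaching within 5 bases of an annotated start, Eif3f, Eif3l and Eif2s3y were lower. Eif4e and Eif4enif1, whose runs lie wholly upstream of the start and in only some of their windows, were higher. Eif2s3x and Eif2b5 were not called. Of the printed windows without a run at the start, those of Eif3m and Eif4b belong to lower members and those of Eif2d and Eif4h to higher ones.

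Genes that act beside the initiation factors were more often lower than higher in polysome RNA. Of 10 tested genes listed with elongation and termination, not all of them factors of these steps, 6 were lower and 1 was higher. Eef1b2, the exchange factor for eEF1A, was at -1.84 ± 0.09 (SE, adjusted p = 7.6e-10) and Eef2, the translocase, at -1.2 ± 0.11 (SE, adjusted p = 9.7e-07). Eef1d was at -1.07 ± 0.12 (SE, adjusted p = 1.5e-05) and Eef1a1 at -0.82 ± 0.08 (SE, adjusted p = 1.3e-06). The lower genes also included Eftud2, a splicing factor, at -0.55 ± 0.09 (SE, adjusted p = 0.00031). The higher gene was Eef1e1, a protein of the tRNA-charging enzyme complex, at 0.44 ± 0.12 (SE, adjusted p = 0.0098). Of 14 tested partners of initiation 2 were higher and 6 were lower. Pabpc1, the poly(A)-binding protein that circularises mRNA through eIF4G, was at -2.03 ± 0.11 (SE, adjusted p = 4.8e-09). Eif4ebp2, a repressor of eIF4E, was at -0.66 ± 0.12 (SE, adjusted p = 0.00089), and Pdcd4, an inhibitor of eIF4A, at -0.32 ± 0.08 (SE, adjusted p = 0.0067). Larp1 itself was higher at 0.4 ± 0.11 (SE, adjusted p = 0.01).

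Markers of other liver cells moved with the fraction too. Of 9 tested Kupffer cell markers 8 were lower in polysome RNA, with a median of -0.76, and the summed signal of the list was 868 to 1694 in polysome arrays, against 1461 to 3037 in unfractionated arrays. The Kupffer markers Marco and Timd4 were too dim to be tested. Stellate cell markers summed to 464 to 927 in polysome arrays and 776 to 1580 in unfractionated arrays, with 3 of 4 tested lower. Of 10 hepatocyte markers 5 were lower and 1, Hnf4a, was higher, 0 of 5 tested endothelial markers were called, and no T cell marker was bright enough to be tested. The part of these cells in the initiation factor results was not tested.

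The polysome to unfractionated ratio of the eIF3 mRNAs was below 1 in both genotypes. Eif3h differed by -1.22 ± 0.11 in Gcn2 knockout livers and -0.95 ± 0.11 in wild-type livers, and Eif3f by -1.02 ± 0.11 in Gcn2 knockout livers and -1.06 ± 0.11 in wild-type livers. Eif4b gave -0.79 ± 0.13 in Gcn2 knockout livers and -0.7 ± 0.13 in wild-type livers. For the polysome to unfractionated ratio itself, knockout minus wild-type, 0 of 39 members were called by limma, as were 0.0% of tested genes, and 4 members had an unadjusted p under 0.05. With the pool as a random replicate block 28 genes were higher and 2 lower, and 0 of them were members. The members with the smallest p were Eif3l at -0.55 ± 0.21 (SE, adjusted p = 0.43), Eif2b5 at -0.54 ± 0.24 (SE, adjusted p = 0.51), Eif1b at 0.47 ± 0.18 (SE, adjusted p = 0.43) and Eif4a2 at 0.31 ± 0.15 (SE, adjusted p = 0.53). All 5 eIF2B genes had a negative difference, with a median of -0.37, against -0.04 over all tested genes, and of -0.24 under median scaling. A typical 95% interval for a member reached 0.4 to each side of its estimate.

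Loss of Gcn2 went with a called difference in a single initiation factor mRNA. Between Gcn2 knockout and wild-type livers over all arrays, 1 of 39 members was called, lower, against 4.2% of tested genes called in either direction, and 6 members had an unadjusted p under 0.05. That member was Eif4e3, a cap-binding relative of eIF4E, at -0.57 ± 0.13 (SE, adjusted p = 0.02). In a fit to unfractionated arrays alone its difference was -0.33 (adjusted p = 0.73) and in a fit to polysome arrays alone -0.81 (adjusted p = 0.034). The call was lost with the pool as a random replicate block (adjusted p = 0.051), with no filter (adjusted p = 0.056) and without any 1 of 5 arrays, at an adjusted p of up to 0.06. All 5 eIF2B genes were on the lower side in Gcn2 knockout livers with a median of -0.22, of which Eif2b2 was nearest to the threshold at -0.28 ± 0.09 (SE, adjusted p = 0.1), and 0 were called. In the same comparison, of 9 tested Kupffer cell markers, Cd5l and Csf1r were lower, at -1.18 ± 0.13 and -0.48 ± 0.12. The others were not called, at -0.37 (C1qb) to -0.07 (Adgre1). The summed Kupffer signal was 868 to 2044 in Gcn2 knockout arrays and 1125 to 3037 in wild-type arrays. Ighm, an immunoglobulin gene, was higher at 3.3 ± 0.33. Jchain, the other tested marker of B and plasma cells, had the opposite sign at -0.37 ± 0.16 (SE, adjusted p = 0.25) and was not called. Cd79a, Cd79b and Ms4a1 were too dim to be tested. In RNA of whole tissue, fewer cells of a type and less RNA per cell cannot be told apart, and the part of these markers in the Eif4e3 result was not tested.

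**Figure D4:**
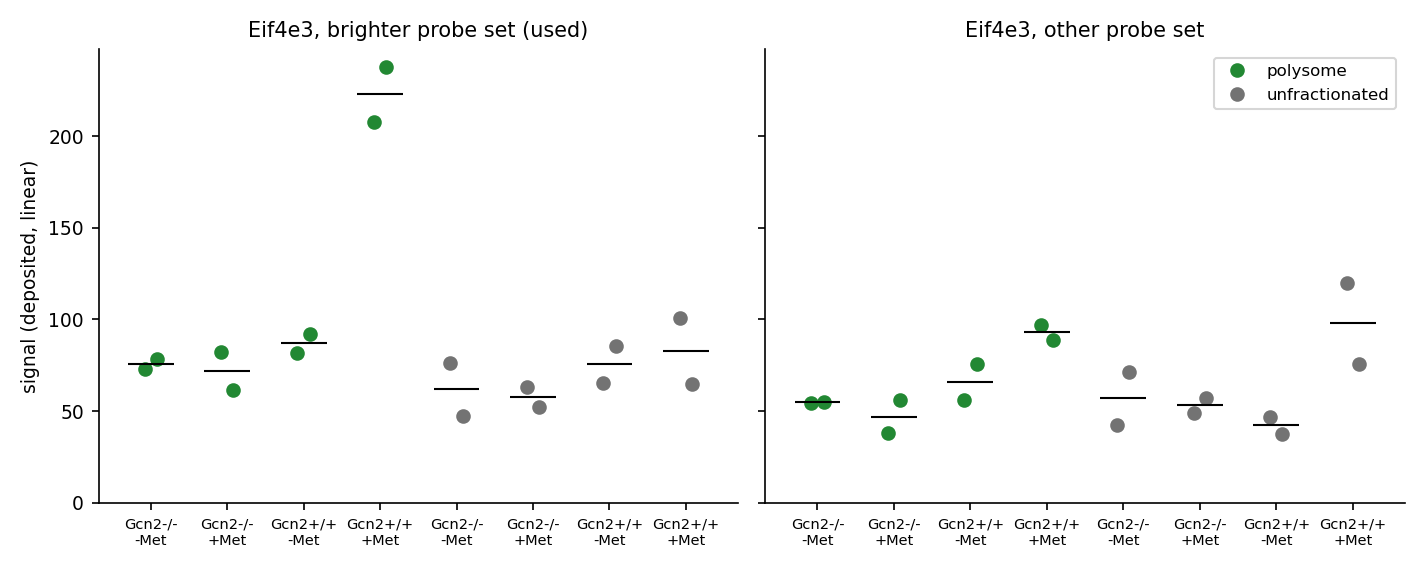
Deposited signal (linear) of the 2 probe sets of Eif4e3 in the 8 groups, 2 arrays each, with a line at each group mean, for polysome RNA (green) and unfractionated RNA (grey). On the brighter probe set both wild-type polysome arrays with methionine, at 208 and 238, stand above all others, and on the other probe set they read 97.0 and 88.9.

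Omitting methionine went with a called difference in 1 initiation factor mRNA, again Eif4e3, and in wild-type polysome RNA. Its signals there were 81.9 and 91.9 without methionine, against 208 and 238 with methionine. The corresponding polysome signals in Gcn2 knockout livers were 73.2 and 78.2 without methionine and 82.1 and 61.6 with methionine. In unfractionated RNA Eif4e3 read 76.5 and 47.2 without and 63.0 and 52.1 with methionine in Gcn2 knockout livers, and 65.3 and 85.6 without and 101 and 64.6 with methionine in wild-type livers. The 2 wild-type polysome arrays with methionine were thus the high ones, and the other 14 arrays did not exceed 101. The difference in wild-type polysome RNA was -1.21 ± 0.26 (SE, adjusted p = 0.023). It made 1 of 39 members called, a share near the 2.58% of all tested genes, and 7 members had an unadjusted p under 0.05. The call was lost with the mean of the probe sets (-0.82, adjusted p = 0.05), with no filter, with the compared arrays alone and without any 1 of 3 arrays. The difference of this effect between genotypes was 1.29 ± 0.37 (SE, adjusted p = 0.28), and that between polysome and unfractionated RNA of wild-type livers -1.12 ± 0.37 (SE, adjusted p = 0.62), neither called. The fraction, genotype and methionine calls of Eif4e3 all draw on the same 2 wild-type polysome arrays with methionine.

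Other members in wild-type polysome RNA were not called. Eif5 differed by 0.8 ± 0.28 (SE, adjusted p = 0.16), with signals of 9624 and 5454 without methionine and 5797 and 2991 with methionine, so the pairs overlapped. Eif5b read 198 and 253 without methionine and 299 and 391 with methionine, at -0.58 ± 0.19 (SE, adjusted p = 0.13). Eif1b was at -0.52 ± 0.18 (SE, adjusted p = 0.15). The members' median was -0.03, against 0.02 over all tested genes, with 16 positive and 23 negative. Median scaling moved the median of all tested genes to -0.27 and that of the members to -0.37, with 37 of 39 negative.

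In the polysome RNA of Gcn2 knockout livers 0 of 39 members were called by limma, against 0.156% of tested genes, and 2 had an unadjusted p under 0.05. Eif2b4 was at -0.63 ± 0.22 (SE, adjusted p = 0.36) and Eif6 at 0.41 ± 0.17 (SE, adjusted p = 0.46). Eif2b4 read 515 and 459 without methionine and 688 and 839.7 with methionine in these pools, 2 pairs that did not overlap.

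In unfractionated RNA 0 of 39 members were called in Gcn2 knockout livers, where 0.0% of tested genes were, and 0 of 39 in wild-type livers, where 0.0641% were. No member had an unadjusted p under 0.05 in either. In Gcn2 knockout livers Eif3a was at -0.42 ± 0.22 (SE, adjusted p = 0.89), Eif3c at -0.33 ± 0.24 (SE, adjusted p = 0.93) and Eif1a at 0.3 ± 0.22 (SE, adjusted p = 0.93). In wild-type livers Eif1ad was at -0.34 ± 0.19 (SE, adjusted p = 0.82) and Eif2s3y at -0.31 ± 0.17 (SE, adjusted p = 0.82). There 30 of 39 members had a negative difference, with a median of -0.11, against -0.02 over all tested genes.

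**Figure D5:**
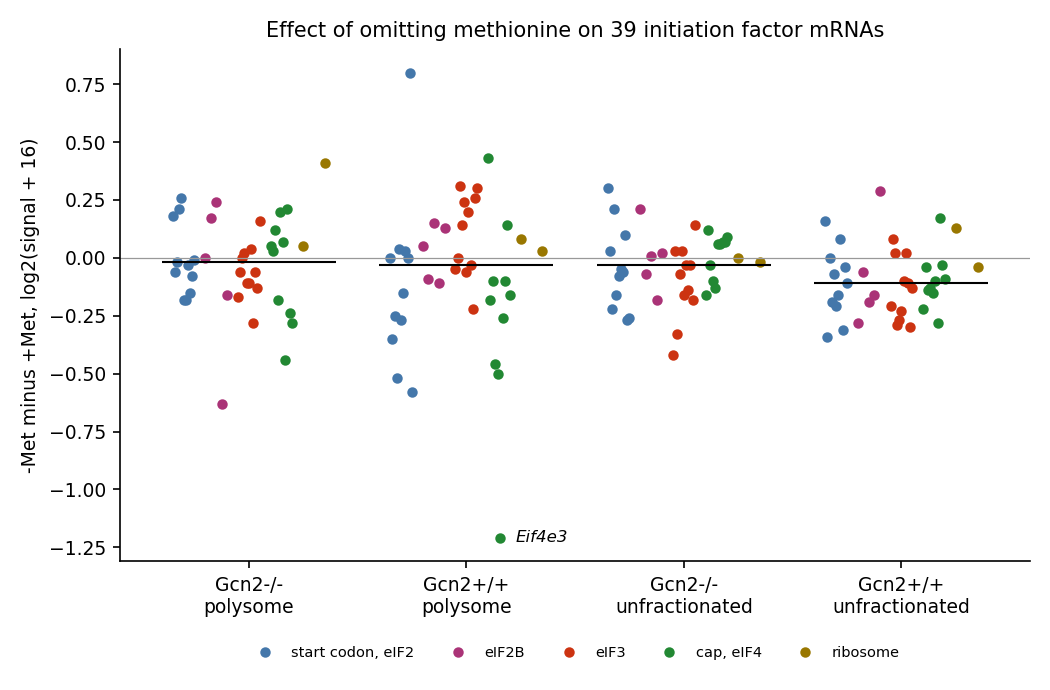
Difference in log2(signal + 16) between livers perfused without and with methionine for the 39 tested members, in Gcn2 knockout and wild-type polysome RNA and in Gcn2 knockout and wild-type unfractionated RNA. Points are members coloured by role and lines are medians. Eif4e3 in wild-type polysome RNA, at -1.21, is the one member called.

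The methionine effect was compared between genotypes and between fractions directly. Knockout minus wild-type, 0 of 39 members were called by limma in unfractionated RNA (0.0458% of tested genes were) and 0 of 39 in polysome RNA (0.055% of tested genes were), with 0 and 4 members at an unadjusted p under 0.05. For the polysome effect minus the unfractionated effect, 0 of 39 were called in Gcn2 knockout livers and 0 of 39 in wild-type livers, with 0.0% of tested genes in both, and 0 and 2 members at an unadjusted p under 0.05. Eif4e2 differed between genotypes in polysome RNA by 0.71 ± 0.27 (SE, adjusted p = 0.4) and Eif1b by 0.74 ± 0.26 (SE, adjusted p = 0.35). In wild-type livers the polysome effect on Eif4a1 exceeded the unfractionated effect by 0.64 ± 0.24 (SE, adjusted p = 0.7). A typical 95% interval for these differences reached 0.57 to each side.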

How the data were processed

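Per the labels, liver RNA was labelled with biotin in one cycle and hybridised to Affymetrix arrays. The deposited value table gives the linear signal intensity of 45101 probe sets, and no source here names the algorithm behind it. The deposited intensity had a mean of 149.9 in every array once 2% of values were trimmed from both tails. It was therefore used as deposited, as log2(signal + 16). Array medians ran from 18.3 to 27.7, but 26.9% to 28.5% of probe sets per array reached 80, so the median lies among dim probe sets, and median scaling was an alternative. A second deposited table of group scores was not used. Gene names come from the platform annotation: 34945 probe sets carry 1 symbol, 932 several, 9160 none and 64 are controls. Those with several symbols were left out, 5 of them with a member's or eIF3j symbol. Eif1, Eif3g and Eif4g1 were not analysed here. Of the tested members 7 rest on probe sets whose names end in s_at or x_at, which can also read related transcripts (Eif2b2, Eif2s3x, Eif3c, Eif3m, Eif4g2, Eif4h and Eif5a). Whether probes tell close paralogues apart (Eif1a and Eif1ax, Eif4a1 and Eif4a2, Eif2s3x and Eif2s3y) was not examined.

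The dimmest 40% of genes were dropped. One limma fit (version 3.58.1, R 4.3.3, trended eBayes) over the 8 groups gave 11 comparisons. Precision is limited by 2 arrays a group, and p-values measure the spread between replicate arrays of a group. The main fit had no block, so polysome and unfractionated arrays counted as independent even where they share a pool. The labels do not say whether replicate numbers join polysome and unfractionated RNA of a pool. They were treated so, since deviations of same-numbered polysome and unfractionated arrays correlated at 0.186 to 0.328 across genes. Same-numbered arrays of different media or genotypes, which cannot share a pool, correlated at -0.065 to 0.218. These ranges overlap, so the pairing, and with it every ratio of a single pool, remains an assumption. The script was tested on simulated data with 200 changed genes. Members, gene lists and markers were chosen with earlier results of these data known. Named are all called members up to 5 each way per comparison, otherwise the smallest p in each direction, and a list of core factors.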

Additional observations from a re-analysis of the deposited data

How the results depend on the processing

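Of 248 counts of called members under 14 alternatives, 241 stayed within 1.5 times the reported count and 7 moved. Most of the reported counts were 0, so the share that stayed says little about stability, and the 7 that moved all belong to counts above 0. Median scaling gave 4 members higher in polysome RNA, not 11, and the cause was not tested. Leaving out 1 array at a time gave 9 to 11 members higher and 16 to 18 lower in polysome RNA, and 24 of the 29 calls held whichever array was left out, while 15 held in every alternative. The replicate block (pool, random) gave 11 higher and 19 lower, and the replicate block with each pool as a fixed term, chosen after seeing the data, gave 12 and 19. For the genotype difference of the fraction ratio, all genes called were 28 higher and 2 lower with the pool as a random block and 66 and 10 with it fixed, against 0 and 0 without a block. For knockout minus wild-type, 0 members were lower with no filter, with the replicate block by pool and in unfractionated arrays alone (chosen after seeing the data), and 0 to 1 without 1 array. For methionine in wild-type polysome RNA, 0 were lower with no filter, with the mean of the gene's probe sets and with arrays of the compared groups alone, 0 to 1 without 1 array, and 0 to 1 higher without 1 array, the 1 without wild-type replicate 1 with methionine. The replicate block changed no other call of a member in the comparisons of genotype or methionine. The Eif3i fraction difference turned to 0.08 under quantile normalization. Among effects that were never called, the methionine effect on Eif2b5 in wild-type unfractionated RNA ran from -0.05 to 0.63 without 1 array, that on Eif5a came to -0.0 under median scaling, and the genotype difference of the methionine effect on Eif1ax in unfractionated RNA to 0.23 with the mean of probe sets. Median scaling moved the median of all genes by -0.3 for methionine in wild-type polysome RNA, by -0.11 in wild-type unfractionated RNA, by 0.26 for its genotype difference in polysome RNA, by -0.19 for the polysome-specific effect in wild-type livers and by 0.11 for the genotype difference of the fraction ratio. It gave 1051 genes higher and 1273 lower in polysome RNA, against 1813 and 1614 as deposited.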

Other observations

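Probe sets of a member could be compared with each other. Of 27 further probe sets with a mean signal of at least 80 that belong to 16 called members, 26 had the sign of the probe set used in polysome against unfractionated RNA, and 1, of Eif2s2, had the opposite one. Probe sets shared with other genes stayed outside the comparisons. The probe set naming both Eif4a3, the helicase of the exon junction complex, and Gm5576 read 1070.4 to 1852 over the 16 arrays, while the probe set naming Eif4a3 alone had a mean signal of 10.3.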
